A study of Mus musculus with 9 samples.

Results

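The genes described here encode the NF-kB transcription factor and the proteins that hold it in check. They are the subunits Rela, Rel, Relb, Nfkb1 and Nfkb2, the inhibitors Nfkbia, Nfkbib, Nfkbid and Nfkbiz, and the deubiquitinating brake Tnfaip3. These 10 genes were taken by symbol from the 55471 genes counted in the series, and all 10 were among the 14918 that passed the filter on low counts. RNA was sequenced from mouse OT-I CD8+ T cells, whose transgenic receptor recognises an ovalbumin peptide, in 4 control and 5 DKO libraries. Control cells were Bdh1-WT and carried the hairpin shCtrl against firefly luciferase. DKO cells were Bdh1-KO and carried the hairpin shOxct1, so that Bdh1 and Oxct1, which encode enzymes of ketone body use, were both targeted. Cells of both groups had been activated in culture with anti-CD3ε, anti-CD28 and IL-2, transduced, sorted on the reporter Ametrine and given to naive CD45.1 hosts of the C57BL/6 strain. The hosts were infected with LmOVA, an ovalbumin-expressing Listeria, and CD45.2+ Ametrine+ cells were sorted from their spleens on day 7 after infection. The hosts kept their own T cells, Oxct1 was silenced by a hairpin and not deleted, and nothing in the labels ties replicates to separate mice, so p-values measure only the spread between these libraries, which may be technical.

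NF-kB acts as a dimer of REL family proteins. In resting cells the inhibitors called IkB keep the dimers in the cytoplasm. Signals from the T cell receptor, CD28, TNF receptors or Toll-like receptors activate the IkB kinase, which marks the classical IkB proteins for destruction, and the freed dimers enter the nucleus. In T cells this pathway is known for its part in activation, survival and cytokine production. Several of its own inhibitors are among its textbook targets. Since much of this control acts on proteins, the RNA levels below give how much message was present and not how active the pathway was.

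Library totals ranged from 45205993 to 59853080 counts in genes. Oxct1 was at 59.2 to 71.5 CPM (the count scaled to a common library total after TMM scaling) in control and at 4.61 to 5.51 CPM in DKO, 8.17% of the control mean. Bdh1 was at 25.1 to 35.1 CPM and 8.98 to 11.6 CPM, 34.9% of the control mean (exact permutation test, two-sided p = 0.0159 for each, the smallest the design allows). A pair of control libraries stood apart from the other 7 in principal components of all genes tested: the score of control replicate 1 on component 1 was -79.1 against -7.3 to 23.5 elsewhere, and that of control replicate 3 on component 2 was -70.2 against -5.6 to 20.2 elsewhere. Control replicate 1 also had the largest share of unmapped reads, 16.7%. All 6 CD8 T cell markers exceeded 1 CPM, and their summed level was 6736 ± 971 CPM (SD, n = 4) in control and 5605 ± 199 CPM (SD, n = 5) in DKO. Cd8a hardly differed (719 against 716 CPM on average), and the largest difference was in Cd8b1 (2250 against 1700). Cd3d (687 against 548), Cd3e (1190 against 1060), Cd3g (989 against 803) and Cd2 (899 against 772) were also lower in DKO on average. The summed level of 12 myeloid markers, 9 of them above 1 CPM, was 255 to 295 CPM in control and 204 to 218 CPM in DKO. Most of that difference lay in Ctss (81.2 against 51.3 CPM on average), Itgam (58.9 against 38.1) and Cd68 (29.2 against 16.8), while Lyz2 was at 2.43 and 5.85 CPM and S100a8 and S100a9 were at or near 0. Both summed levels were lower in DKO (exact permutation test, p = 0.0159 for each, adjusted p = 0.0397 over 5 marker lists). Without control replicate 1 the CD8 difference was -665 CPM, where it had been -1131 CPM. CD4 T cell and erythroid and platelet lists had adjusted p of 0.106 and 0.635 by that exact test, and the B cell list 0.536. Of 12 B cell markers 3 exceeded 1 CPM and Pax5 was at 0 counts in every library, and the summed B cell level was 187 to 271 CPM in control and 196 to 216 CPM in DKO. The part of other cells in the member results was not tested. In bulk RNA, fewer cells of a type and less RNA per cell cannot be told apart.

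The promoters of the members whose RNA lay closest to a difference are shown first, since the family's inhibitors are known to be targets of NF-kB itself. No member passed the threshold described below, so the windows printed are those of Nfkbid and Tnfaip3, which had the smallest p-values. Each is a RefSeq window of 300 bases on GRCm38.p6, from 250 before to 50 after an annotated start, written 5′ to 3′ on the strand of the gene, with capitals at each match to the kappa-B consensus, the motif bound by NF-kB dimers. The Tnfaip3 window is chr10:19015361-19015660, minus strand, and the Nfkbid window is chr7:30422156-30422455, plus strand.
Tnfaip3: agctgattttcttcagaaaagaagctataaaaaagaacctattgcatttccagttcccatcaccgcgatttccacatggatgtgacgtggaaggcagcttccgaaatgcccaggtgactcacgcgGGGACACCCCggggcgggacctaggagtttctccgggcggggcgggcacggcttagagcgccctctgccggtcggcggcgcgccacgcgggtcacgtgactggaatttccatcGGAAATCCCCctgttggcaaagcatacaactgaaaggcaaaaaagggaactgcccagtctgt
Nfkbid: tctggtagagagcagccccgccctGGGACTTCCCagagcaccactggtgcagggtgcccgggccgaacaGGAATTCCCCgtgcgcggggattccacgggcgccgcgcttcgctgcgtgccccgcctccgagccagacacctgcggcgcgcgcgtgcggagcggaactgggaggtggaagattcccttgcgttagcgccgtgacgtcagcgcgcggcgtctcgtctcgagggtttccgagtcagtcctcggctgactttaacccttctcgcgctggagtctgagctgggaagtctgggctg
The Tnfaip3 matches begin 125 and 12 bases before the start site of this window, and the other Tnfaip3 window in the table held no match. The Nfkbid matches begin 226 and 181 bases before a start site inside the gene, and the other 2 Nfkbid windows held no match.

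Further sites with 10 bases on either side are printed for the members Nfkbia, Nfkb2 and Rel, to show how the letters vary within the family. They begin 29 bases before the start site of Nfkbia, 39 before that of Nfkb2, 10 after another Nfkb2 start site and 92 before that of Rel.
Nfkbia: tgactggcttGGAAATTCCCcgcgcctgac
Nfkb2: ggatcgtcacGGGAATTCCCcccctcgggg
Nfkb2: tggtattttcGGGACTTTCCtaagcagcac
Rel: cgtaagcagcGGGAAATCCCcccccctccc
Of the 7 members in the promoter table, 5 held a match to the consensus on either strand (Nfkb2, Nfkbia, Nfkbid, Rel and Tnfaip3). Among all genes with a window, 2581 of 27025 did, or 9.55%. A match in at least 1 window was counted, and some members have several windows: 7 of the 12 member windows held a match, beside 8.46% of all 32851 windows. With the stricter word GGGANTTTC, again on both strands and often lying inside a consensus match, 2 of the 7 members matched (Nfkb2 and Nfkbia), and 1.29% of all genes. A match is a description of these letters and no evidence of binding.

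None of the 10 members passed an adjusted p of 0.05 between DKO and control by the quasi-likelihood test of edgeR, adjusted by Benjamini-Hochberg over all genes. By that test 422 genes, 2.83%, passed, with 1.32% of all genes higher and 1.51% lower in DKO. Only Nfkbid had an unadjusted p under 0.05, and it was higher in DKO, as were 7.74% of all genes tested at that level. DESeq2 and limma-voom also called 0 of the 10 at an adjusted p under 0.05, beside 8.41% and 6.68% of the genes each tested. At an unadjusted p under 0.05 they had 3 and 2 members. The share of all genes at that level was not computed for these tools, so those counts have no background beside them. In fitted direction 6 members were higher and 4 lower in DKO, with a median log2 fold change of 0.08, beside a median of -0.01 over all genes. The median size of a member's log2 fold change was 0.16, beside 0.18 over all genes.

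A p that misses the threshold does not show equal levels, and the intervals give what sizes of difference remain. The 95% intervals of all 10 members lay inside a 2-fold difference either way, and those of 8 lay inside 1.5-fold, the exceptions being Rel and Tnfaip3. Members had 641 to 14201 counts in a library, and the intervals reached 0.18 to 0.52 on the log2 scale to either side of the estimate.

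**Figure D1:**
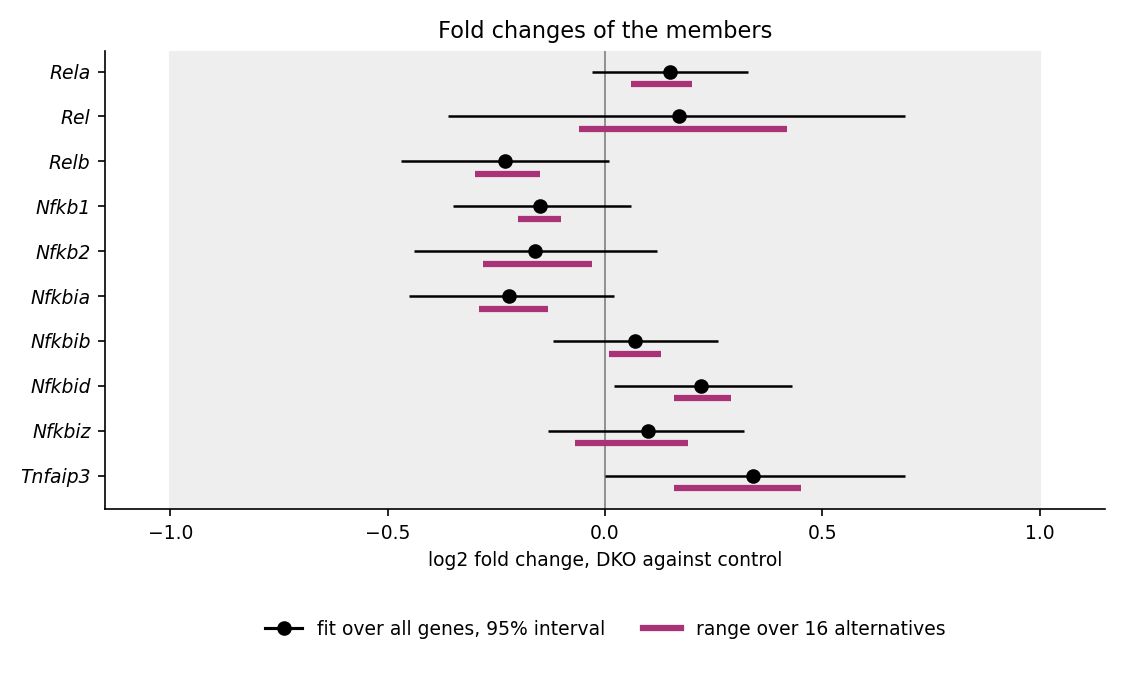
Log2 fold change of each member, DKO over control, from edgeR's quasi-likelihood test, with its 95% interval (4 control and 5 DKO libraries), beside the values under the alternative settings. Nfkbid alone has an interval that excludes 0, no adjusted p is under 0.05, and Rel and Tnfaip3 have the widest intervals.

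Among the subunits, Rela encodes p65, which carries the activation domain of the most common dimer (ENSMUSG00000024927.8, chr19:5637483-5648130, plus strand, GRCm38). Rela stood at 196, 230, 235 and 249 CPM in control replicates 1 to 4, and at 255, 241, 273, 239 and 255 CPM in DKO replicates 1 to 5. The groups overlapped, with 3 DKO libraries above every control library and control replicate 1 lowest. Its log2 fold change was 0.15 (SE 0.08, 95% interval -0.03 to 0.33, adjusted p = 0.416).

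Rel encodes c-Rel, the subunit of lymphocytes that is induced on activation (ENSMUSG00000020275.9, chr11:23736847-23770970, minus strand). Rel was at 13.2, 29.6, 37.9 and 21.4 CPM in control and at 27.1, 33.1, 26.1, 30.8 and 25.9 CPM in DKO. The control libraries held both the lowest and the highest value, and the DKO libraries lay between them. DKO over control came to a log2 fold change of 0.17 (SE 0.24, interval -0.36 to 0.69, adjusted p = 0.782). Without control replicate 1 it was -0.06 (adjusted p = 0.888), and without control replicate 3 it was 0.42, so the sign of this value rested on 1 library.

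Relb encodes the subunit that pairs with p52 in the alternative pathway (ENSMUSG00000002983.17, chr7:19606217-19629438, minus strand). Relb was at 43.9, 38.1, 37 and 49.1 CPM in control and at 39.8, 38.1, 33.3, 36.1 and 31.6 CPM in DKO. The groups overlapped, with control replicate 4 highest and DKO replicate 5 lowest. For Relb the log2 fold change was -0.23 (SE 0.11, interval -0.47 to 0.01, adjusted p = 0.332).

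Nfkb1 encodes p105, the precursor of p50, which acts as an inhibitor until it is processed (ENSMUSG00000028163.17, chr3:135584655-135691547, minus strand). Nfkb1 was at 89.5, 84.2, 75.2 and 76.8 CPM in control and at 73.9, 82.9, 72.7, 74.5 and 63.3 CPM in DKO. DKO replicate 2 lay within the control range and the other 4 DKO libraries lay below it. Its log2 fold change was -0.15 (SE 0.09, interval -0.35 to 0.06, adjusted p = 0.485).

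Nfkb2 encodes p100, the precursor of p52 (ENSMUSG00000025225.15, chr19:46304320-46312385, plus strand). It shares 830 exon bases, 18.1% of its exons, with AC114539.1 and Psd on the opposite strand. Counting without strand leaves out reads there, and the sum of the strand columns was 1.34 times its unstranded count, so its level is uncertain. Nfkb2 was at 48, 53.8, 67.4 and 77.2 CPM in control and at 51.3, 56.3, 58.2, 57.1 and 52.9 CPM in DKO. All 5 DKO libraries lay inside the control range, and the log2 fold change was -0.16 (SE 0.13, interval -0.44 to 0.12, adjusted p = 0.593). It was -0.28 without control replicate 1 and -0.03 without control replicate 4, and passed in neither case (adjusted p = 0.15 and 0.919).

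**Figure D2:**
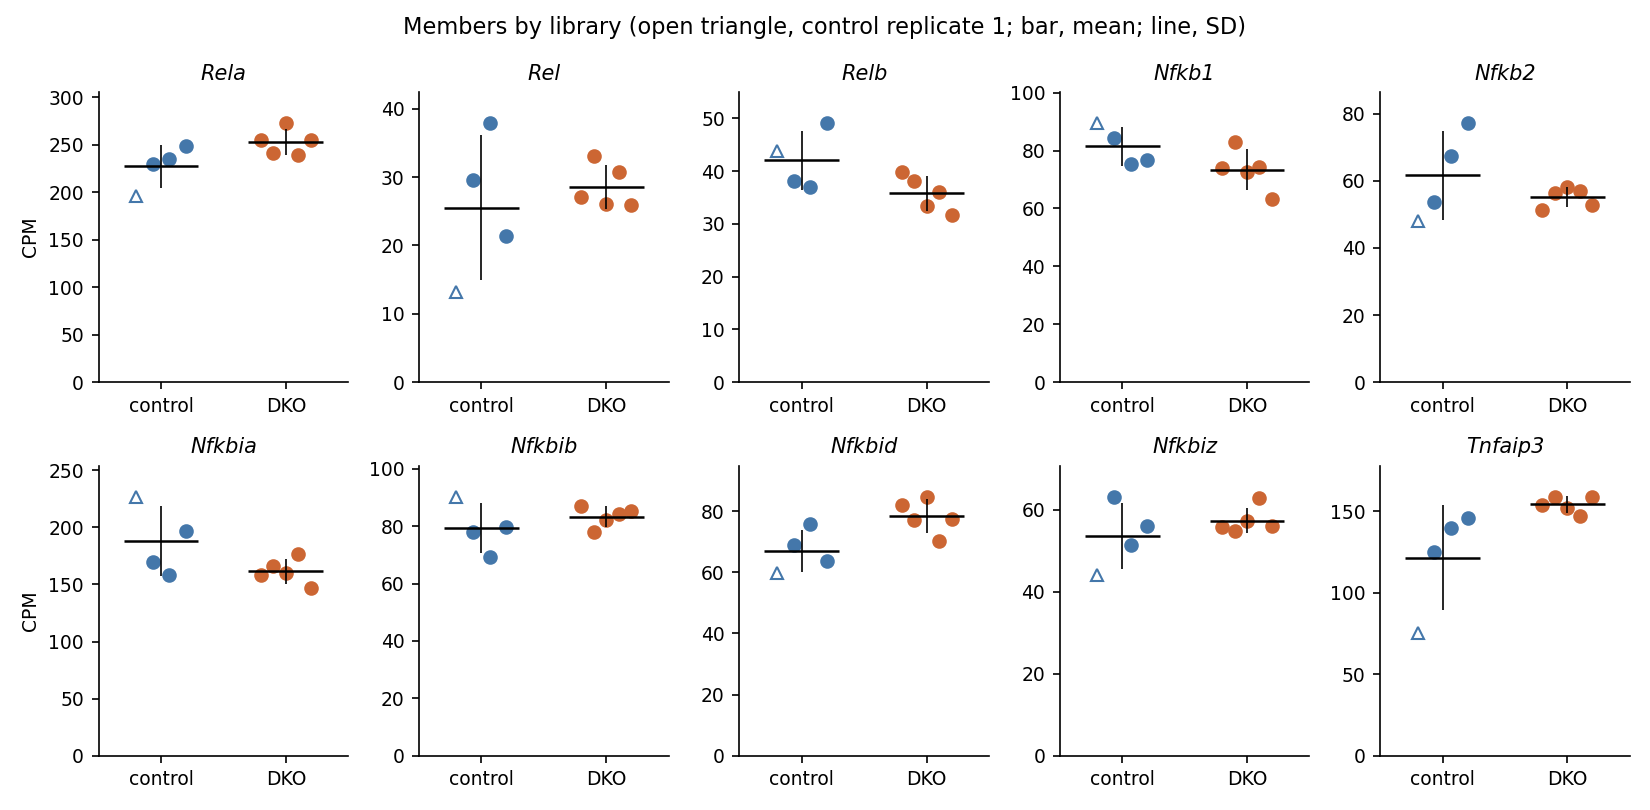
CPM of the 10 members in each of the 4 control and 5 DKO libraries, with bars for the group mean and SD. Control libraries spread more widely for Rel, Tnfaip3 and Nfkb2, and Tnfaip3 alone has its 5 DKO libraries above its 4 control libraries.

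Of the classical inhibitors, Nfkbia encodes IkBα, which is destroyed on activation and made again as a target of the freed dimers (ENSMUSG00000021025.8, chr12:55489410-55492647, minus strand). Nfkbia was at 227, 170, 158 and 197 CPM in control and at 158, 166, 160, 177 and 147 CPM in DKO. Control replicate 1 was highest, DKO replicate 5 was lowest and the groups overlapped. Its log2 fold change was -0.22 (SE 0.11, interval -0.45 to 0.02, adjusted p = 0.355), and -0.13 without control replicate 1.

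Nfkbib encodes IkBβ, a slower-turning relative (ENSMUSG00000030595.15, chr7:28758251-28767512, minus strand). It shares 356 exon bases, 16.4% of its exons, with Ccer2 and Sirt2, and the sum of its strand columns was 1.01 times its unstranded count. Nfkbib was at 90.3, 78.1, 69.3 and 79.6 CPM in control and at 87.1, 77.8, 82.2, 84.3 and 85.3 CPM in DKO. All 5 DKO libraries lay inside the control range, and the log2 fold change was 0.07 (SE 0.09, interval -0.12 to 0.26, adjusted p = 0.739).

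Nfkbid encodes IkBNS, an inhibitor of nuclear dimers that also takes part in expression of some lymphocyte genes (ENSMUSG00000036931.15, chr7:30421732-30428746, plus strand). Nfkbid was at 59.7, 69.1, 75.7 and 63.8 CPM in control and at 82.1, 77.1, 84.8, 70.4 and 77.5 CPM in DKO. Of the 5 DKO libraries 4 were above every control library, and replicate 4 lay within the control range. The log2 fold change was 0.22 (SE 0.09, interval 0.02 to 0.43, adjusted p = 0.26), which does not pass over all genes. Limma-voom gave an adjusted p of 0.0909, the smallest of any setting.

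Nfkbiz encodes IkBζ, a nuclear relative required for a subset of inflammatory genes (ENSMUSG00000035356.17, chr16:55811375-55838899, minus strand). Nfkbiz was at 44.1, 63.2, 51.3 and 56.1 CPM in control and at 55.7, 54.9, 57.3, 62.8 and 56.1 CPM in DKO. All 5 DKO libraries lay inside the control range. Their mean gave a log2 fold change of 0.10 (SE 0.10, interval -0.13 to 0.32, adjusted p = 0.704), and -0.00 without control replicate 1.

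Tnfaip3 encodes A20, a ubiquitin-editing enzyme that ends signalling from TNF and antigen receptors (ENSMUSG00000019850.11, chr10:19000910-19015657, minus strand). Tnfaip3 was at 75, 125, 140 and 146 CPM in control and at 154, 159, 152, 147 and 159 CPM in DKO. Every DKO library lay above every control library, a separation found with DKO above in 4.62% of all genes tested, and the nearest libraries were at 146 and 147 CPM. The log2 fold change was 0.34 (SE 0.16, interval -0.00 to 0.69, adjusted p = 0.322). Control replicate 1, at 75 CPM, held much of that difference: without it the control mean was 137 ± 11.1 CPM (SD, n = 3), the log2 fold change 0.16 and the adjusted p 0.181.

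The spread between libraries was described by the coefficient of variation, with no test. The coefficient of variation was larger in control for 9 of the 10 members, beside 75.7% of all genes, and for 8 without control replicate 1, beside 54.2%. For Rel it was 41.6% in control, 27.9% without control replicate 1, and 11.2% in DKO. For Tnfaip3 it was 26.6%, 8.07% and 3.38% in the same order. Control replicate 1 was the lowest library for 6 members (Rela, Rel, Nfkb2, Nfkbid, Nfkbiz and Tnfaip3) and the highest for 3 (Nfkb1, Nfkbia and Nfkbib). It was at one end for 57.9% of all genes, so an end position in that library is common. Whether its larger share of unmapped reads bears on these values was not tested.

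Levels were compared between members per kilobase of exon, since longer messages give more counts. The length was that of all annotated exons of a gene joined, from 1610 bases for Nfkbia and 3072 for Rela to 12061 for Nfkb1. It can exceed the length of the transcript present, which would place a gene too low, and other lengths were not tried. Nfkbia led, with a median over 9 libraries of 103 CPM per kb and a range of 91.3 to 141. Rela followed at 78.3 (63.9 to 88.9), and neither range overlapped the next. Nfkbib at 37.9 (31.9 to 41.6) and Nfkbid at 32.3 (25.5 to 36.1) overlapped each other. Nfkbid stood clear of Tnfaip3 at 20.3 (10.4 to 22.1). The ranges of Tnfaip3, Nfkb2 at 12.3 (10.5 to 16.8) and Nfkbiz at 11.2 (8.78 to 12.6) overlapped their neighbours, as did that of Relb at 9.8 (8.13 to 12.6) with Nfkbiz. Nfkb1 at 6.23 (5.25 to 7.42) and Rel at 3.63 (1.77 to 5.07) were lowest and overlapped neither each other nor Relb. On this scale the inhibitor Nfkbia and the subunit Rela were thus the highest of the group in every library, an order that depends on the lengths used.

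**Figure D3:**
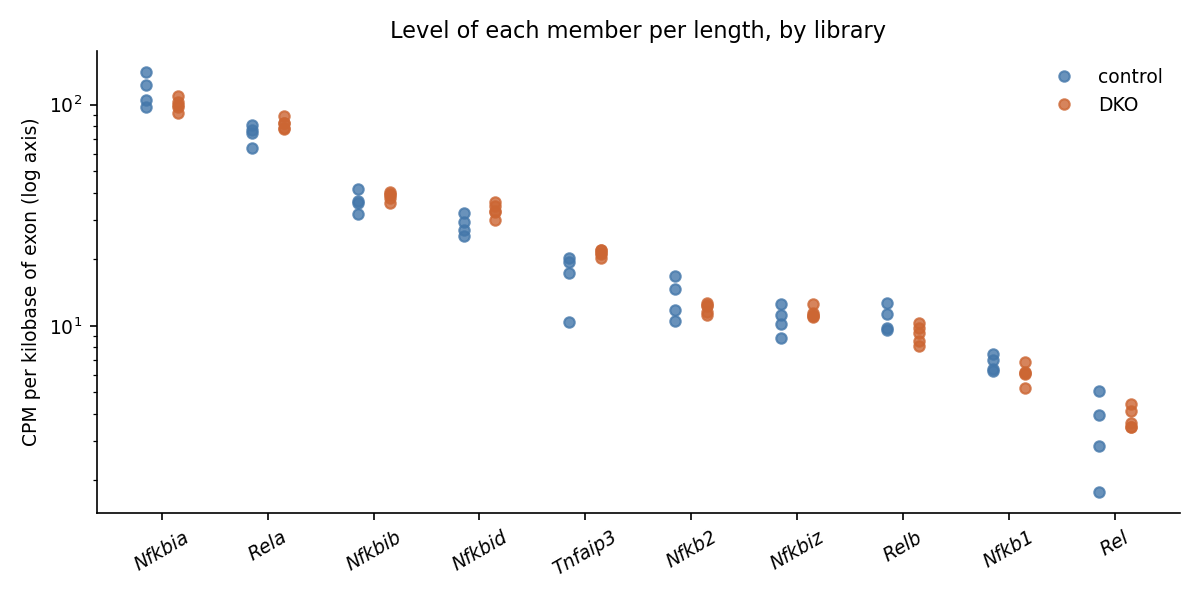
CPM per kilobase of exon of each member in the 9 libraries, ordered by median. Nfkbia and Rela lie above all others in every library and Rel lies lowest.

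Within the 5 subunits, Rela made up 67.4 to 69.7% of their summed CPM per kb in control and 70.1 to 74.5% in DKO, with means of 68.3 ± 1.04% (SD, n = 4) and 72.5 ± 1.99% (SD, n = 5). The groups did not overlap. No test was made of this sum over chosen members, and how often such a share separates the groups was not computed. The Relb share was 8.5 to 11.9% and 7.17 to 8.97%, that of Nfkb1 5.31 to 7.82% and 4.71 to 6.15%, and that of Nfkb2 10.9 to 14.1% and 9.78 to 11.3%, so those 3 overlapped. The Rel share was 1.87 to 4.52% and 2.92 to 3.97%. Reads fell evenly on both strands (49.9 to 50.1% in 1 strand column). Summed strand columns therefore give Nfkb2 all reads of its overlapped part, whichever gene they came from. With those columns the Rela share was 64.2 to 67% in control and 67.5 to 71.9% in DKO, and again did not overlap. Shares of a sum move together, and no subunit passed its own test. The size of each share also rests on the exon lengths used. The ratio of Nfkbia to Rela per length was 2.21, 1.41, 1.28 and 1.51 in control and 1.18, 1.31, 1.11, 1.42 and 1.1 in DKO, which overlapped, with control replicate 1 highest.

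**Figure D4:**
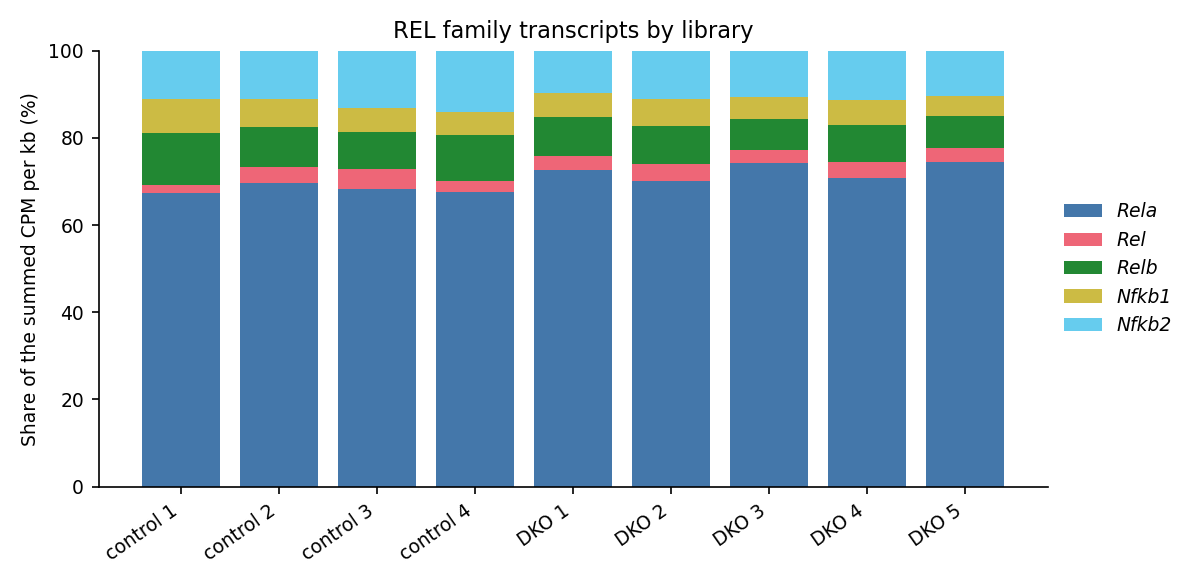
Share of each subunit in the summed CPM per kilobase of the 5 subunits, in percent, for the 4 control and 5 DKO libraries. The Rela share lies at 67.4 to 69.7% in control and at 70.1 to 74.5% in DKO.

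The rest of the pathway was read from 86 listed genes in 7 groups, of which 82 passed the filter on low counts. By edgeR 2 rose and 2 fell in DKO, beside 1.32% and 1.51% of all genes. At an unadjusted p under 0.05 there were 8 higher and 6 lower, beside 7.74% and 8.25% of all genes, and the median log2 fold change was 0.05. The groups did not overlap in CPM for 8 genes with DKO above and 3 with DKO below. Among all 14918 genes tested, 689 and 610 separated in these ways. Among the other IkB proteins 1 of 3 passed. Bcl3, a nuclear IkB that binds p50 and p52 dimers, was at 19.7, 27, 25.5 and 33.2 CPM in control and at 44.4, 34.7, 35.3, 46.1 and 53.2 CPM in DKO. Its DKO libraries all lay above control, and the log2 fold change was 0.70 (SE 0.17, interval 0.33 to 1.06, adjusted p = 0.0497). That call lay at the threshold: it held under 5 of 16 other settings, with adjusted p from 0.00242 to 0.148, and of the 9 leave-one-out fits only the one without control replicate 4 kept it. Nfkbie, which encodes IkBε, had a log2 fold change of -0.13 (adjusted p = 0.525).

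Of the IkB kinases and the kinases above them 0 of 10 passed by edgeR, DESeq2 or limma-voom, none had an unadjusted p under 0.05 by edgeR, and their log2 fold changes ran from -0.26 to 0.25. The catalytic kinases Chuk and Ikbkb were at 0.09 and 0.14 (adjusted p = 0.636 and 0.52), the scaffold Ikbkg at -0.07 (adjusted p = 0.865) and Map3k14, the kinase of the alternative pathway, at 0.15 (adjusted p = 0.601). Tab3, which links ubiquitin chains to the kinase TAK1, had the smallest p of the group, at -0.26 (adjusted p = 0.476). Both Ikbkg and Tab3 were lowest among control libraries in control replicate 1, and without it they were at -0.24 and -0.42 (adjusted p = 0.0442 for each).

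On the route from the antigen receptor 0 of 5 passed by edgeR. At an unadjusted p under 0.05 by edgeR 1 was higher and 0 lower, beside 7.74% and 8.25% of all genes. DESeq2 and limma-voom each called 1 and the same gene, beside 8.41% and 6.68% of the genes each tested. That gene was Bcl10, the adaptor that binds Malt1, at 89.4 to 101 CPM in control and 107 to 115 CPM in DKO. The groups did not overlap, as in 4.62% of all genes with DKO above. Its log2 fold change was 0.20 (SE 0.07), with adjusted p of 0.177 by edgeR, 0.031 by DESeq2 and 0.0281 by limma-voom. The protease Malt1 had a log2 fold change of 0.20 (adjusted p = 0.67), and of -0.02 without control replicate 1.

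Of 16 adaptors and ubiquitin ligases of TNF and interleukin receptors 1 passed by edgeR, and it fell. At an unadjusted p under 0.05 by edgeR 1 was higher and 1 lower, beside 7.74% and 8.25% of all genes. DESeq2 and limma-voom called 2 each, beside 8.41% and 6.68% of the genes each tested. Traf1, an adaptor of TNF receptor complexes and itself a target of NF-kB, was at 251, 253, 260 and 301 CPM in control and at 208, 224, 211, 207 and 175 CPM in DKO. The groups did not overlap, as in 610 of 14918 genes tested with DKO below (log2 fold change -0.38, SE 0.09, adjusted p = 0.0478). The call held under 7 of 16 other settings, with adjusted p from 0.00348 to 0.133, and in the leave-one-out fits only without control replicate 1. Of 11 deubiquitinases and other brakes 0 passed by any of the 3 tools and 0 at an unadjusted p under 0.05 by edgeR. The brake Tnip1, which binds A20, was at -0.04 and the deubiquitinase Cyld at 0.04 on the log2 scale (adjusted p = 0.86 and 0.896), and Zc3h12a, an RNase that limits inflammatory messages, had the smallest p of the group at -0.21 (adjusted p = 0.509).

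Of 13 receptors tested 0 passed by edgeR. DESeq2 called 2 and limma-voom 3, beside 8.41% and 6.68% of the genes each tested. By edgeR 2 were higher and 2 lower at an unadjusted p under 0.05, beside 7.74% and 8.25% of all genes. Tnfrsf1a, the main receptor of soluble TNF, was at 28.3 to 40.8 CPM in control and 45.9 to 52.2 CPM in DKO. Its log2 fold change was 0.42 (SE 0.11), with adjusted p of 0.073 by edgeR, 0.00983 by DESeq2 and 0.027 by limma-voom. Without control replicate 1 its log2 fold change was 0.30 (adjusted p = 0.0293). Of 24 textbook NF-kB target genes tested 1 rose and 1 fell by edgeR. With DESeq2, which gave no adjusted p for 2 of the 25 listed, 3 passed. With limma-voom 4 did, beside 8.41% and 6.68% of the genes each tool tested. At an unadjusted p under 0.05 by edgeR 3 were higher and 3 lower, beside 7.74% and 8.25% of all genes. Tnf, the cytokine that both follows from and feeds into this pathway, was at 2.21, 2.14, 1.75 and 2.81 CPM in control and at 4.59, 4.44, 5.09, 5.18 and 6.79 CPM in DKO. The groups did not overlap, as in 4.62% of all genes with DKO above. The difference was 1.22 on the log2 scale (SE 0.19, adjusted p = 0.00759), and the call held under 16 other settings but not with a replicate block (adjusted p = 0.0758). Sod2, a mitochondrial enzyme that removes superoxide, was at 62.5, 56.8, 56.6 and 59.3 CPM in control and at 42.3, 45.9, 45.2, 47.3 and 44.3 CPM in DKO. Every DKO library lay below every control library, as in 610 of 14918 genes tested. The difference was -0.39 on the log2 scale (SE 0.07, adjusted p = 0.0214). Sod2 passed in 12 of 16 other settings, and lost the call without control replicate 4 or DKO replicates 1, 3 or 5. The 2 genes of that list that passed by edgeR changed in opposite directions.

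**Figure D5:**
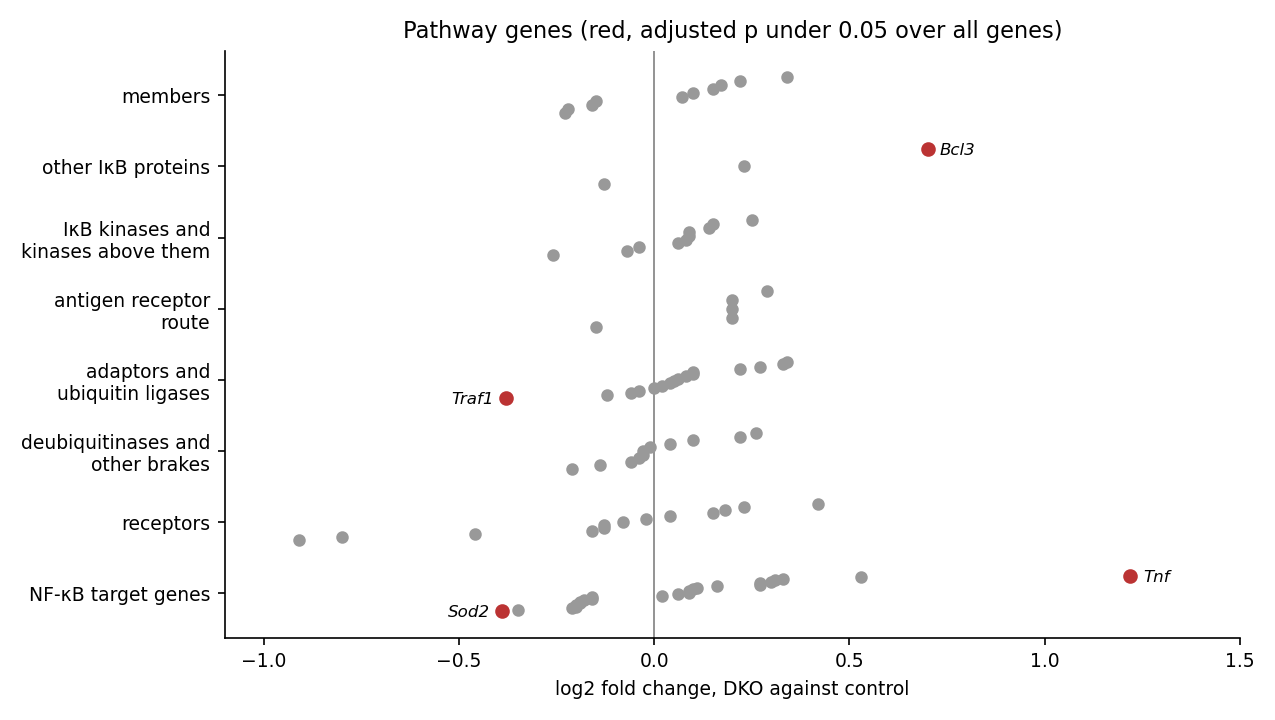
Log2 fold change, DKO over control, of the 10 members (top row) and the listed pathway genes by group, 1 point a gene, with genes past an adjusted p of 0.05 in red and named; height within a row only separates points. Tnf and Bcl3 lie above 0, and Traf1 and Sod2 below it.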

How the data were processed

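PolyA RNA of 4 control and 5 DKO libraries was made into libraries with the Takara SMART-Seq v4 and Nextera Flex kits, per the labels. Raw counts per gene were deposited for each library, without regard to strand and for each strand. The submitters' processing notes name Trim Galore 0.6.0, STAR 2.7.8a and mm10, and the annotation is not given in the sources used here. Identifiers were matched to GENCODE M21 (GRCm38) without the version number, 55230 of 55471. Library sizes exclude the rows without a gene, which held unmapped (10.3 to 16.7% of a library), multimapping (5.8 to 6.79%), featureless (4.01 to 5.2%) and ambiguous reads (4.97 to 5.31%).

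The unstranded counts went into edgeR 4.0.16 (R 4.3.3; robust quasi-likelihood test, TMM factors 0.987 to 1.03, filterByExpr with a minimum count of 10 and total of 15), with Benjamini-Hochberg adjustment over 14918 genes at 0.05. Intervals are 95% and come from the fit. Alternatives used DESeq2 1.42.0 and limma 3.58.1 (voom), other filters and scalings, the strand columns, a replicate block and each library left out. The fitting code was run on simulated counts as a check of the code. Targeted genes and marker lists used exact permutation tests. Figures used matplotlib 3.10.9. The members and the pathway and marker lists were chosen with earlier results of these data known. Named genes were the 10 members, Oxct1, Bdh1, 12 pathway genes fixed by name (1 of them is not reported here), and of each list every gene past the threshold or, with none, the one with the smallest p. Promoter windows were printed for the 2 members with the smallest p. Promoter windows are from RefSeq on GRCm38.p6, and 7 of 10 members matched. Replicate numbers are shared by the labels of both groups, but same-numbered libraries did not deviate together, so they were not paired.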

Additional observations from a re-analysis of the deposited data

Results flagged for a closer look

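In 6 of 58 sets of libraries examined, 1 library lay apart from the rest of its group by Dixon's ratio, where chance gives about 1 in 20, and none of them was a member's. In control replicate 4, Nfkbie was at 83.6 CPM, with the other control libraries at 65.5 to 67.8, and Traf1 was at 301 CPM, with the others at 251 to 260. In control replicate 1, Ikbkg was at 49 CPM, with the others at 81.3 to 86, and Tab3 was at 12 CPM, with the others at 19.3 to 20.7. Among DKO libraries, Cyld was at 248 CPM in replicate 2, with the others at 220 to 225, and Tab3 was at 12.3 CPM in replicate 4, with the others at 15.2 to 16.2.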

How the results depend on the processing

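No member passed the threshold under any of the 16 alternatives or the replicate block, where the smallest adjusted p of a member was 0.502. The replicate block rests on 8 libraries, and the same-numbered libraries' deviations correlated at -0.05, -0.01, 0.01 and -0.12, so no pairing by these numbers was seen. The blocked fit called 63 genes and 0 of the pathway list (adjusted p = 0.0758 for Tnf). The deposited name of 1 control file carries another number than replicate 4 in its title, which was used. That library was matched to DKO replicate 4 in the block and correlated best with DKO replicate 5 (0.14). With its number in doubt, the check cannot exclude a pairing. All genes past the threshold numbered 1059 by DESeq2, 996 by limma-voom and 179 to 749 with 1 library left out. Pathway genes past it, with 82 tested in the main fit, numbered 9 by DESeq2 and 11 by limma-voom, beside 8.41% and 6.68% of the genes each tested. With 1 library left out they numbered 1 to 12, beside 1.22 to 4.93% of all genes. The 12 came without control replicate 1, where the share was 4.93%. Without control replicates 1 and 3, a setting added after the data were seen, they numbered 7, beside 3.08%. Signs reversed for Nfkbiz (-0.04 by limma-voom, -0.00 without control replicate 1, -0.07 without control replicates 1 and 3, and up to 0.19 without control replicate 2), Cyld (-0.04, -0.09 and -0.05 in the same order, and up to 0.12 with 1 library left out), Rel (-0.06 to 0.42) and Malt1 (-0.02 to 0.31) with the lowest value without control replicate 1, Ikbkg (-0.24 to 0.00 with 1 library left out, the highest without control replicates 2 or 4, and -0.27 without control replicates 1 and 3), and Tnip1 (-0.08 to 0.05 with 1 library left out, the highest without control replicate 4, and -0.14 without control replicates 1 and 3); the cause was not tested. With 1 library left out, the DKO minus control sum of CD8 T cell markers was -1385 to -665 CPM, of myeloid markers -72.5 to -59.2, of CD4 T cell markers 4.97 to 8.28, of B cell markers -28.1 to -0.205 and of erythroid and platelet markers -0.156 to 9.4. The exact test of the first 2 lists then gave adjusted p of 0.0893 without a control library and 0.0714 without DKO replicates 1, 2, 3 or 4. Those are the smallest that 2 tied lists can reach with so few libraries, so they say nothing of stability. Without DKO replicate 5 the CD4 T cell list tied with them, and 3 tied lists can reach 0.0476, which all 3 had. Of the members in the promoter table, 2 matched the stricter word. Members had at least 641 counts in every library, and other depths were not tried.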
